A study of Mus musculus with 8 samples.

Results

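RNA was sequenced from mouse embryonic fibroblasts (MEFs) cultured with RHPS4, a small molecule that binds G-quadruplexes, the 4-stranded folds of guanine-rich nucleic acid. The genes described here are the 9 that encode the enzymes from squalene to cholesterol, taken by name and in pathway order (Sqle, Lss, Cyp51, Tm7sf2, Msmo1, Nsdhl, Hsd17b7, Sc5d and Dhcr7), of 24460 genes counted in all. The cells were wild type MEFs given 0 µM RHPS4 (3 libraries), 2 µM RHPS4 (3 libraries) or 10 µM RHPS4 (2 libraries), and every group shared a medium with high glucose, pyruvate and 10% serum. The labels give an exposure of 16 or 24 h without tying either to these libraries, and the longer one is the exposure named in the text of the study for work on mitochondrial function in MEFs at the lower dose. The labels do not state the age of the embryos or the animals the cells came from, nor whether replicates were separate cultures. Serum brings lipoprotein cholesterol to such cells, so none of these groups was cultured in sterol-free medium. All values are steady-state mRNA in whole cultures, in which fewer cells expressing a gene and less of its RNA per cell cannot be told apart.

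Cholesterol is built from acetyl-CoA, first through mevalonate and isoprenes to squalene, and then through the steps considered here, most of them in the membrane of the endoplasmic reticulum. Squalene is oxidised by Sqle and folded into lanosterol by Lss. Cyp51 and then Tm7sf2 remove a methyl group from the ring and reduce the double bond that this leaves, Msmo1, Nsdhl and Hsd17b7 act in turn to strip both methyl groups from one ring carbon, and Sc5d and Dhcr7 set the last double bonds of the ring. Genes of the pathway are textbook targets of SREBP2, a membrane-bound transcription factor that is cut and released when sterols in the endoplasmic reticulum run low, and which often acts beside the factor NF-Y.

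In mouse assembly GRCm38 with the GENCODE M21 annotation, the 9 protein-coding genes lie on 9 chromosomes. Those of the opening steps are Sqle (chr15:59315077-59331192, plus strand), Lss (chr10:76531588-76557138, plus) and Cyp51 (chr5:4081145-4104746, minus). In the middle of the pathway are Tm7sf2 (chr19:6062821-6068373, minus), Msmo1 (chr8:64718139-64733792, minus), Nsdhl (chrX:72918557-72958514, plus) and Hsd17b7 (chr1:169949535-169969241, minus). Sc5d (chr9:42251595-42264256, minus) and Dhcr7 (chr7:143823145-143848410, plus) act last.

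The 8 libraries held 10455965 to 26688121 counts each, and each of the 9 enzyme genes was counted in every library, with 89 to 5973 counts, so all 9 passed the filter on low counts, as did 14296 genes in all. Expression is given as CPM (TMM), which sets each count against the size of its library after trimmed-mean scaling. The share of counts from mtDNA went from 13.7% ± 0.626 (SD, 3 libraries) without RHPS4 to 7.97% ± 0.488 (SD, 3 libraries) at 2 µM, and was 5.82% ± 0.701 (SD, 2 libraries) with 10 µM. The 8 fibroblast markers summed to 12597 to 13133 CPM in the libraries without RHPS4, 11326 to 11681 CPM with 2 µM and 11013 to 11600 CPM with 10 µM, so every 0 µM library lay above all others. With library totals as scaling their means were 12067, 11439 and 12360 CPM, which puts 10 µM highest. Of these markers Pdgfrb fell at 10 against 0 µM (log2 fold change -0.60, edgeR adjusted p = 0.000248). A further 19 markers of epithelial, endothelial, blood, muscle, fat or liver cells summed to only 13.9 to 22.0 CPM, 13.9 to 18.8 at 0 µM and 18.0 to 22.0 at 10 µM. The first 0 µM library stood apart from the others of its group, and results that turn on it are given without it. What part the mtDNA share or these markers have in the values below was not tested. When scaling used nuclear genes alone, the same 4 of the 9 enzyme genes were called at 10 against 0 µM.

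Of the mRNAs for the enzymes from squalene to cholesterol, Hsd17b7, Cyp51, Sqle and Lss fell in cells with 10 µM RHPS4, to between 0.549 and 0.655 of their level at 0 µM, whereas the estimates of all 9 at 2 against 0 µM lay between -0.30 and 0.14 on the log2 scale. A gene was called changed when its adjusted p lay under 0.01 and it differed by over 1.5-fold. At 10 against 0 µM, 4 of 9 genes were called lower and 0 higher, where 1.14% of all genes tested were called lower. The 9 were chosen with earlier results of these data known, so setting them against all genes is no independent test of the pathway. The 9 log2 fold changes had a median of -0.61 and ran from -0.86 to -0.14, against a median of 0.016 over all genes tested. In 8 of 9 genes every 10 µM library lay below every 0 µM library, with Tm7sf2 as the exception, and this held for 20.0% of all genes tested. At 2 against 0 µM none of the 9 was called in either direction, with a median of -0.041, where 0.378% of all genes were called lower and 0.119% higher. By edgeR, 1 of the 9, Dhcr7, was lower with an unadjusted p under 0.05 in that comparison, which is no more than the 11.2% of all genes that were, and DESeq2 also called 0. In Lss alone did every 2 µM library lie below every 0 µM library, against 12.9% of all genes. The direct comparison of 10 against 2 µM called 3 of 9 lower (Hsd17b7, Cyp51 and Sqle), where 1.59% of all genes were, with a median of -0.50 against 0.026, and 8 of 9 did not overlap, against 24.9% of all genes. The comparisons with 0 µM share the same control libraries.

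Sqle encodes squalene epoxidase and catalyses an oxygen-consuming and often rate-limiting step. Its libraries gave 244, 222 and 229 CPM without RHPS4, 231, 227 and 225 CPM with 2 µM and 153 and 150.2 CPM with 10 µM. The 0 and 2 µM libraries were mixed and both 10 µM libraries were far below. Sqle fell at 10 against 0 µM (log2 fold change -0.61 ± 0.073, SE, adjusted p = 0.000363, a ratio of 0.654) and at 10 against 2 µM (-0.59 ± 0.073, SE, adjusted p = 0.000359), and its value at 2 against 0 µM was -0.024 ± 0.064 (SE, adjusted p = 0.87). The call at 10 against 2 µM sat at the fold threshold, and was lost without the first 2 µM library (log2 fold change -0.58, adjusted p = 0.002). Lss, the cyclase that folds the epoxide into lanosterol, stood at 152, 151 and 148 CPM without RHPS4, 135, 142 and 138 CPM with 2 µM and 94.9 and 102 CPM with 10 µM. Its libraries formed 3 separate steps in order of dose, with little spread inside each. Lss fell at 10 against 0 µM (-0.61 ± 0.073, SE, adjusted p = 0.000351, a ratio of 0.655), while the small difference at 2 against 0 µM did not pass the test (-0.12 ± 0.064, SE, adjusted p = 0.31). At 10 against 2 µM its adjusted p passed and its fold did not (-0.49 ± 0.073, SE, adjusted p = 0.000932). In the annotation, the exons of Lss share 3.53% of their bases with an antisense transcript, 4930483K19Rik, from which its reads can be told apart only if counting used strand.

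Cyp51 encodes lanosterol demethylase, a cytochrome P450 that needs electrons from the reductase Por. It stood at 229, 204 and 194 CPM without RHPS4, 213, 199.7 and 196 CPM with 2 µM and 121 and 120.1 CPM with 10 µM. Both 10 µM libraries were nearly equal and lay below all 6 others. Cyp51 fell at 10 against 0 µM (-0.80 ± 0.087, SE, adjusted p = 0.000194, a ratio of 0.576) and at 10 against 2 µM (-0.75 ± 0.087, SE, adjusted p = 0.000224), with -0.041 ± 0.076 (SE, adjusted p = 0.8) at 2 against 0 µM. Its exons share 3.76% of their bases with Akap9 on the opposite strand. The next step needs a sterol reductase, an activity that Tm7sf2 shares with Lbr (described below, mean of 129.5 CPM without RHPS4). Tm7sf2 had low counts, at 9.24, 10.4 and 10.0 CPM without RHPS4, 11.0, 10.1 and 8.20 CPM with 2 µM and 9.71 and 8.27 CPM with 10 µM. The libraries of all 3 doses overlapped. Its log2 fold change at 10 against 0 µM was -0.14 ± 0.14 (SE, adjusted p = 0.553), with a 95% interval from -0.46 to 0.17, which does not reach the estimate for Cyp51. The values were -0.10 ± 0.15 (SE, adjusted p = 0.662) at 10 against 2 µM and -0.039 ± 0.13 (SE, adjusted p = 0.894) at 2 against 0 µM. Tm7sf2 shares 12.1% of its exon bases with Vps51 on the same strand, where reads may be lost or shared between them.

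Since both mRNAs are counted in the same library, their ratio needs no scaling. The log2 ratio of Cyp51 to Tm7sf2 counts was 4.63, 4.29 and 4.27 in the 0 µM libraries, 4.27, 4.30 and 4.57 at 2 µM, and 3.63 and 3.85 at 10 µM. Both 10 µM values were below all 6 others. The mean changed by -0.66 at 10 against 0 µM (pooled SD 0.186) and by -0.64 at 10 against 2 µM (pooled SD 0.165), each with an exact two-sided permutation p = 0.2, the smallest that 3 against 2 libraries allow, and an adjusted p of 0.923 over 15 tests of 5 neighbouring pairs. For the other 4 pairs (Sqle to Lss, Msmo1 to Nsdhl, Nsdhl to Hsd17b7 and Sc5d to Dhcr7) the ratios of the doses overlapped in every comparison.

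Msmo1, the sterol oxidase that starts this round, gave 269, 232 and 237 CPM without RHPS4, 277, 276 and 261 CPM with 2 µM and 184 and 200.4 CPM with 10 µM. Its 2 µM libraries lay among the highest 0 µM values or just above them, and its 10 µM libraries below all others. At 10 against 0 µM it was not called (-0.36 ± 0.086, SE, adjusted p = 0.0201). Its adjusted p passed and its fold did not (-0.50 ± 0.087, SE, adjusted p = 0.00243) for 10 against 2 µM. Without the second 10 µM library, which leaves a single library at that dose, the estimate was -0.60. At 2 against 0 µM Msmo1 had the only positive estimate of the 9, 0.14 ± 0.076 (SE, adjusted p = 0.315). Nsdhl, the decarboxylating dehydrogenase, is X-linked and stood at 37.0, 40.9 and 33.4 CPM without RHPS4, 40.5, 39.6 and 30.7 CPM with 2 µM and 30.0 and 19.9 CPM with 10 µM. The 10 µM libraries differed from each other more than those of any other of the 9 genes, with a coefficient of variation of 28.5% against a median of 5.03% over the 9 genes and 3 doses. Its log2 fold change was -0.56 ± 0.17 (SE, adjusted p = 0.05) at 10 against 0 µM, -0.56 ± 0.17 (SE, adjusted p = 0.0388) at 10 against 2 µM and -0.0093 ± 0.15 (SE, adjusted p = 0.979) at 2 against 0 µM, none of them called. One 10 µM library decided its size at 10 against 0 µM, -0.92 without the first and -0.33 without the second, and without the first the difference from 2 µM was -0.93. Hsd17b7, the reductase that closes the round, had the largest change of the 9 at 10 against 0 µM. It stood at 46.2, 45.1 and 48.2 CPM without RHPS4, 42.2, 44.5 and 45.3 CPM with 2 µM and 25.4 and 25.7 CPM with 10 µM. Replicates lay close together at every dose, and both 10 µM libraries were below all 6 others. Hsd17b7 fell at 10 against 0 µM (-0.86 ± 0.083, SE, adjusted p = 6.92e-05, a ratio of 0.549) and at 10 against 2 µM (-0.79 ± 0.084, SE, adjusted p = 0.000117), with -0.079 ± 0.071 (SE, adjusted p = 0.561) at 2 against 0 µM.

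Sc5d, the desaturase that works with cytochrome b5, stood at 199, 175 and 180.1 CPM without RHPS4, 176, 163 and 175 CPM with 2 µM and 125 and 129 CPM with 10 µM. The 10 µM libraries were below all others, and the 0 and 2 µM libraries overlapped. The adjusted p of Sc5d passed at 10 against 0 µM, and its fold stayed just under the threshold (-0.54 ± 0.081, SE, adjusted p = 0.00172), which it crossed without the second 0 µM library (-0.59, adjusted p = 0.00442). Between 2 and 10 µM the adjusted p of Sc5d passed and its fold did not (-0.43 ± 0.081, SE, adjusted p = 0.00373), and at 2 against 0 µM the value was -0.11 ± 0.072 (SE, adjusted p = 0.413). Dhcr7, the reductase whose loss causes Smith-Lemli-Opitz syndrome in humans, also had low counts, at 13.7, 18.0 and 18.8 CPM without RHPS4, 11.9, 14.8 and 14.7 CPM with 2 µM and 11.5 and 10.6 CPM with 10 µM. The first library of 0 µM was lower than the other two, and the 10 µM libraries were below all 6 others. The size of its difference at 10 against 0 µM was close to that of Sqle, with a wider error, and it was not called (-0.62 ± 0.15, SE, adjusted p = 0.0188). Without the first 0 µM library it was called (-0.75, adjusted p = 0.00204), and DESeq2 called it with all libraries (adjusted p = 0.00448). At 2 against 0 µM its log2 fold change was -0.30 ± 0.13 (SE, adjusted p = 0.209) and at 10 against 2 µM -0.32 ± 0.15 (SE, adjusted p = 0.158), so the share of the difference reached by 2 µM could not be resolved.

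**Figure D1:**
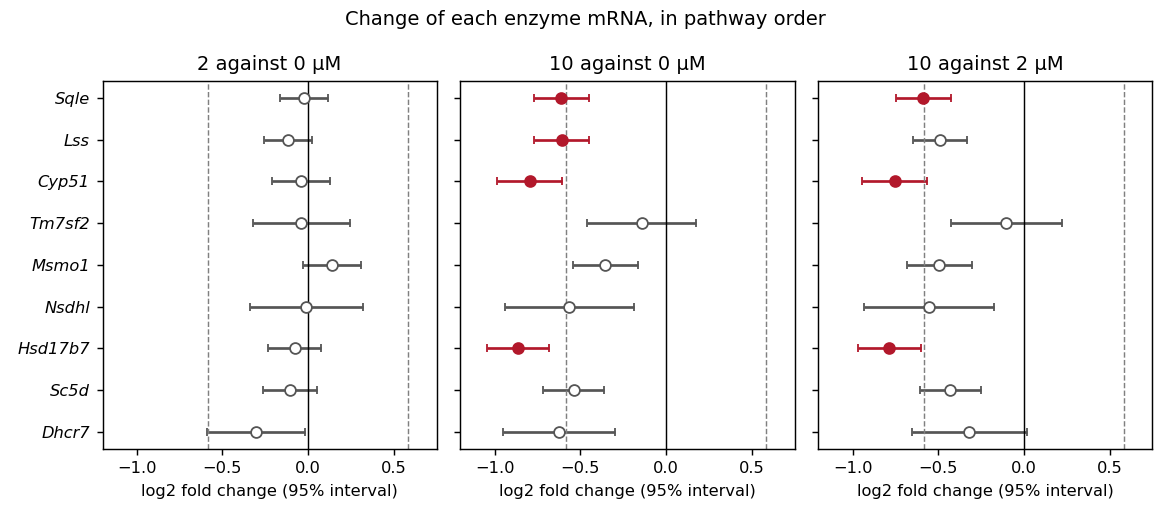
Log2 fold change (horizontal axis) of each enzyme mRNA in pathway order (vertical axis) for 2 against 0, 10 against 0 and 10 against 2 µM, with 95% intervals from the edgeR fit. Filled red points are called lower, and dashed lines mark the fold of 1.5. At 10 against 0 µM the points run from -0.86 (Hsd17b7) to -0.14 (Tm7sf2), and at 2 against 0 µM no gene is called.

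Summed over the 9 genes, the pathway segment took 1132 ± 58.3 CPM without RHPS4, 1116 ± 22.2 CPM with 2 µM (SD, n = 3 for each) and 760.1 ± 8.44 CPM with 10 µM (SD, n = 2). The libraries of 0 and 2 µM ran from 1093 to 1199 CPM and both 10 µM libraries, at 754 and 766 CPM, lay below them. The size of these differences depended on the scaling. With library totals in place of TMM, only Hsd17b7 (log2 fold change -0.65) was called at 10 against 0 µM, Tm7sf2 changed sign (0.071), and the median of all genes tested stood at 0.23 in place of 0.016. Over all genes, that scaling gave 846 higher and 68 lower calls in place of 279 and 163. At 10 against 2 µM it called 2 of the 9, Cyp51 and Hsd17b7, in place of 3. A change of scaling moves the log2 fold changes of all genes by nearly the same amount. Relative to the median gene the 10 against 0 µM change of Cyp51 was therefore -0.81 under both scalings, which adds no support.

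Across the segment the mRNAs differed widely in level per length (CPM per kilobase of exon, the union of each gene's annotated exons). At 0 µM, Cyp51 stood highest at 47.4 ± 4.11 CPM per kilobase (SD, n = 3), followed by Sqle at 41.8 ± 2.04, Msmo1 at 40.0 ± 3.28 and Sc5d at 38.0 ± 2.58. The lowest Cyp51 library lay just above the highest Sqle library, and the other neighbours among these 4 overlapped. Lss at 13.9 ± 0.165, Nsdhl at 13.0 ± 1.31 and Hsd17b7 at 9.11 ± 0.308 formed a middle group, in which Lss and Nsdhl overlapped. Dhcr7 at 2.89 ± 0.471 and Tm7sf2 at 2.24 ± 0.131 were the lowest pair at every dose, and their libraries at 0 µM came close without overlapping. At 10 µM the top 4 were Msmo1 at 31.3 ± 1.88 (SD, n = 2), Sqle at 27.3 ± 0.325, Cyp51 at 27.2 ± 0.0727 and Sc5d at 26.1 ± 0.538 CPM per kilobase, so Cyp51 moved from the first to the third place. There Sqle and Cyp51 overlapped, and the libraries of Msmo1 lay above and those of Sc5d below both. The order inside the top group rests on the length used, since with the longest transcript Msmo1 came first already at 0 µM (82.9 CPM per kilobase).

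The start regions of 4 genes are printed to show what the most and least changed genes carry upstream, since this is where SREBP2 and NF-Y bind other genes of the pathway. Each runs 5′ to 3′ on the gene's strand, from 250 bases before to 50 bases after the RefSeq start (GRCm38.p6, the build of mm10), and capitals mark matches on either strand to TCACNTCA, a variant of the sterol response element (SRE), or to CCAAT, the NF-Y box, which reads ATTGG from the other strand. Hsd17b7 (chr1:169969156-169969455, minus strand) and Cyp51 (chr5:4104648-4104947, minus strand) had the largest changes, Lss (chr10:76531355-76531654, plus strand) was called without an SRE variant in the window, and Tm7sf2 (chr19:6067801-6068100, minus strand) changed least. The Tm7sf2 window lies wholly inside the gene as placed by GENCODE M21, so its RefSeq start is downstream of the outermost GENCODE start.
Hsd17b7: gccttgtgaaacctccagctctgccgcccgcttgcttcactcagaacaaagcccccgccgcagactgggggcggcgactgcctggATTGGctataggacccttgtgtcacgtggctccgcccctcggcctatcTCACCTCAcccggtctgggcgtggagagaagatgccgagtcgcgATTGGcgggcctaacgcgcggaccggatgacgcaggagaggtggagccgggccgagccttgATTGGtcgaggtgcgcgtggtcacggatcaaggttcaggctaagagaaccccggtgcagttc
Cyp51: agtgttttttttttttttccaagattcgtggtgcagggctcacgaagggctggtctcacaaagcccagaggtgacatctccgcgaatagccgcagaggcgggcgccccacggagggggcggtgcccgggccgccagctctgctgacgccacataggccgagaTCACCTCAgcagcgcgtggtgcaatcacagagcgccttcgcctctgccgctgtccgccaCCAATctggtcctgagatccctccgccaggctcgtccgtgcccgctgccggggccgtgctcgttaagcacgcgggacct
Lss: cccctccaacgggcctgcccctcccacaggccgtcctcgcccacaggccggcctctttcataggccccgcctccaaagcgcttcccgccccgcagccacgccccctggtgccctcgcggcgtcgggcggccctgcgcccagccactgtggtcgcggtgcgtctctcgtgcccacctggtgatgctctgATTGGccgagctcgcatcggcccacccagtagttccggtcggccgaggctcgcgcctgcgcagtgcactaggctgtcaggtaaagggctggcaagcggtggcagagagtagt
Tm7sf2: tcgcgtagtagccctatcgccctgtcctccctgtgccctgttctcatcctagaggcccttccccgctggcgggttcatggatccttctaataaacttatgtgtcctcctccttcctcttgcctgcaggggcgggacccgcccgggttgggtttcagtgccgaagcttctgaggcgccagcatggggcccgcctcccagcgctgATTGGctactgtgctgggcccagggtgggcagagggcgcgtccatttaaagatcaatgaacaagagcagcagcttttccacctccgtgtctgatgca
Counted from 1 at the 5′ end, the SRE variant lay at bases 134 to 141 in Hsd17b7 and 163 to 170 in Cyp51. Windows matched 8 of the 9 genes, all but Sqle, with 10 windows in all and 3 for Dhcr7. CCAAT was in 8 of these 10 windows, against 37.4% of all 32851 RefSeq windows, and GGGCGG, the GC box, in 9 of 10, against 35.7%, and each was in at least 1 window of all 8 genes. The variant TCACNTCA was in 5 of 10 windows, against 3.47%, from 4 genes (Cyp51, Hsd17b7, Sc5d and Dhcr7), and was selected for the search with these windows in view. The classic SRE, TCACNCCAC, was in 0 of 10, against 1.24%. No match of one of these motifs overlapped a match of another. The 4 genes with the variant had log2 fold changes at 10 against 0 µM from -0.86 to -0.54, of which 2 were called, and the 4 without it (Lss, Tm7sf2, Msmo1 and Nsdhl) from -0.61 to -0.14, of which 1 was called. Because of how the variant was selected, neither its share of windows nor this split tests a link between it and the changes. A G-quadruplex motif, 4 runs of at least 3 guanines with loops of 1 to 7 bases on either strand, was in 3 of 10 windows (1 each of Tm7sf2, on both strands, Sc5d and Dhcr7), against 18.6%. These are matches of letters in a short window and say nothing of binding in these cells.

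**Figure D2:**
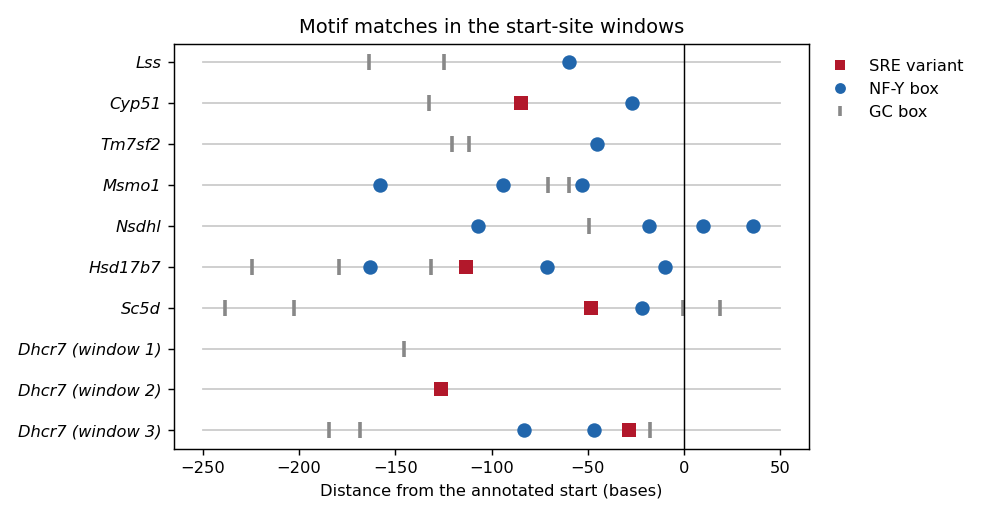
Position of motif matches in each start-site window (vertical axis, pathway order, Dhcr7 with 3 windows) as distance in bases from the annotated start (horizontal axis, 0 being the start). Red squares are SRE variants, blue circles NF-Y boxes and grey ticks GC boxes. SRE variants appear in Cyp51, Hsd17b7, Sc5d and Dhcr7.

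The other enzymes of the same stretch taken in were Lbr and Ebp. Lbr, a nuclear membrane protein that carries the same reductase activity as Tm7sf2, averaged 129.5 ± 6.29 CPM without RHPS4, 148 ± 3.34 CPM with 2 µM (SD, n = 3 for each) and 95.8 ± 3.02 CPM with 10 µM (SD, n = 2). Lbr fell at 10 against 2 µM (-0.63 ± 0.075, SE, adjusted p = 3e-04), a call lost with library totals as scaling, and at 10 against 0 µM its adjusted p passed and its fold did not (-0.43 ± 0.075, SE, adjusted p = 0.00374). Ebp, the sterol isomerase, was not called at 10 against 0 µM (-0.08 ± 0.11, SE, adjusted p = 0.674). The difference between Lbr and Tm7sf2 was not tested. None of the 4 electron donor genes (Por, Cyb5r3, Cyb5a and Cyb5b) was called in any comparison by edgeR with all libraries, and by DESeq2 0 were called. By edgeR, 2 of them were lower with an unadjusted p under 0.05 at 10 against 0 µM, where 14.6% of all genes were, and 2 at 10 against 2 µM, where 18.3% were, while 0 had such a p at 2 against 0 µM. Among them, Por (-0.47 ± 0.085, SE, adjusted p = 0.00492) and Cyb5b (-0.38 ± 0.071, SE, adjusted p = 0.00568) were the 2 at 10 against 0 µM, both under the fold threshold.

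Upstream, 3 of the 9 mevalonate pathway genes were called lower at 10 against 0 µM and 0 higher, with a median log2 fold change of -0.53, where 1.14% of all genes were called lower. By edgeR, all 9 of them were lower there with an unadjusted p under 0.05, as were 8 of the 9 enzyme genes from squalene to cholesterol, where 14.6% of all genes were. At 10 against 2 µM the mevalonate median was -0.55, against -0.50 for the squalene to cholesterol genes. Hmgcs1, which makes HMG-CoA, fell (-0.78 ± 0.10, SE, adjusted p = 0.000704), as did the isomerase Idi1 (-0.76 ± 0.082, SE, adjusted p = 0.000176) and the thiolase Acat2 (-0.72 ± 0.13, SE, adjusted p = 0.00546). At 10 against 2 µM, Idi1 (-0.89 ± 0.083, SE, adjusted p = 4.44e-05) and Acat2 (-0.66 ± 0.13, SE, adjusted p = 0.00534) were called, 2 of 9, where 1.59% of all genes were called lower. That count became 4 without the first 0 µM library and 1 without the second 2 µM library. The 7 genes listed under sterol sensing were Srebf1, Srebf2, Scap, Insig1, Insig2, Mbtps1 and Mbtps2, not all of which sense sterols themselves. Of these, Insig1, which retains the SREBP complex in the endoplasmic reticulum and is itself an SREBP target, was the 1 called lower at 10 against 0 µM (-0.77 ± 0.086, SE, adjusted p = 0.000226) and at 10 against 2 µM (-0.79 ± 0.087, SE, adjusted p = 0.000146). Without the first 0 µM library 2 were called lower at 10 against 0 µM, Insig1 and Srebf2, the gene of SREBP2. With all libraries Srebf2 was not called there (-0.62 ± 0.23, SE, adjusted p = 0.0917), and its 0 µM libraries ran from 132 to 237 CPM. Insig2, a relative of Insig1 with the same role, had a positive estimate at 10 against 2 µM (0.57 ± 0.18, SE, adjusted p = 0.039) and was not called. Its 10 µM libraries stood far apart, at 32.2 and 50.9 CPM, the lower of them level with the highest 2 µM library (32.2 CPM). Of 3 genes of sterol transport inside the cell (Npc1, Npc2 and Stard4), 0 were called in any comparison by edgeR with all libraries. By edgeR, 1 was lower with an unadjusted p under 0.05 in each comparison. The shares of all genes were 11.2% at 2 against 0 µM, 14.6% at 10 against 0 µM and 18.3% at 10 against 2 µM. At 10 against 2 µM another 2 were higher with such a p, where 18.2% of all genes were. DESeq2 called 1 of the 3, Stard4, lower at 10 against 0 µM, as did edgeR without the first 0 µM or the third 2 µM library. The 7 genes listed under efflux and storage were Abca1, Abcg1, Soat1, Nr1h2, Nr1h3, Mylip and Ch25h, not all of which export or store sterols. None of them was called in any comparison by edgeR or DESeq2 with all libraries. By edgeR, 3 of them were lower with an unadjusted p under 0.05 at 2 against 0 µM, where 11.2% of all genes were. The 3 were Abca1, Nr1h2 and Ch25h. At 10 against 0 µM 2 of the 7 were lower with such a p, where 14.6% of all genes were. At 10 against 2 µM 1 of the 7 was lower and 2 were higher, where 18.3% and 18.2% of all genes were. Their median at 10 against 0 µM was -0.16. Abca1, which exports cholesterol from cells, was lower in every 2 µM library than in every 0 µM library. Its adjusted p passed at 2 against 0 µM and its fold stayed just under the threshold (-0.58 ± 0.089, SE, adjusted p = 0.0067), and without the first 0 µM library it was called lower. At 10 against 0 µM its value was -0.34 ± 0.099 (SE, adjusted p = 0.0418). Of the 6 fatty acid synthesis genes, 3 were called lower at 10 against 0 µM and 2 at 10 against 2 µM, where 1.14% and 1.59% of all genes were. Without the second 2 µM library, 1 of these 6 genes was called at 10 against 2 µM. Their median at 10 against 0 µM was -0.58, and by edgeR all 6 were lower there with an unadjusted p under 0.05. With library totals as scaling, none of the mevalonate, sensing, transport or fatty acid genes was called at 10 against 0 µM. At 2 against 0 µM, 0 of the 38 genes in these 7 lists were called by edgeR or DESeq2 with all libraries, and by edgeR 9 were lower and 1 higher with an unadjusted p under 0.05, where 11.2% and 10.1% of all genes were.

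**Figure D3:**
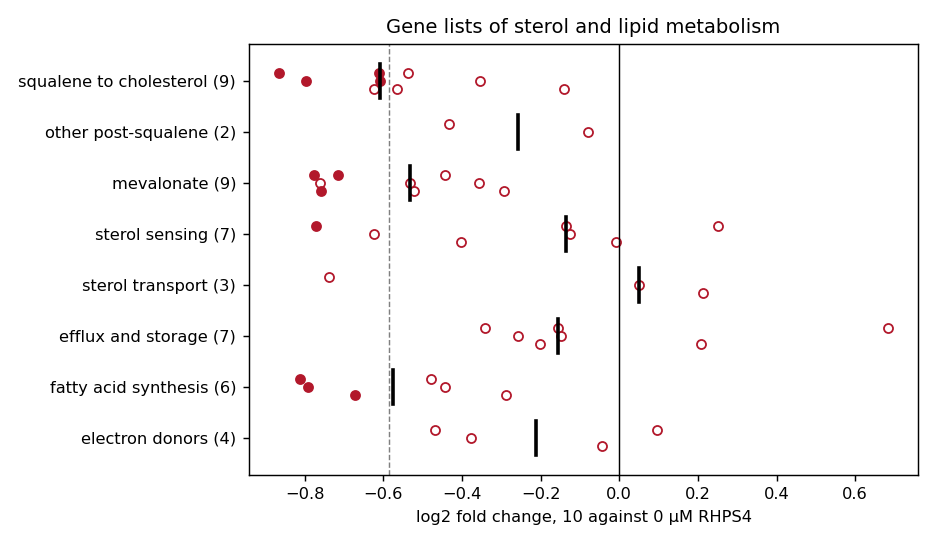
Log2 fold change at 10 against 0 µM RHPS4 (horizontal axis) of each gene in the lists of sterol and lipid metabolism (vertical axis, number of genes in brackets), with filled points called lower, black bars at each list's median and a dashed line at the fold of 1.5. Medians run from -0.61 for the squalene to cholesterol enzymes to 0.050 for sterol transport, and the lowest point is Hsd17b7 at -0.86.

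The genes outside the 9 whose profile over the 8 libraries lay nearest to the median profile of the 9, by root mean square distance of centred log2 CPM, were Nrp1 (0.0379), Pcyt2 (0.0421), Gltp (0.0456), Pcdh7 (0.0537) and 1810055G02Rik (0.0546). Among all 14296 genes ranked this way, Sqle was at place 3, Lss at 6, Sc5d at 20, Msmo1 at 232, Cyp51 at 244, Hsd17b7 at 558, Nsdhl at 1934, Dhcr7 at 2616 and Tm7sf2 at 3112. The 9 genes make up the median profile against which they are ranked here. These distances describe 8 libraries that share 3 doses and carry no test.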

How the data were processed

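The 8 libraries were made from total RNA depleted of ribosomal RNA, with a kit that marks strand. According to the labels and the methods, the authors trimmed reads (Trim Galore, cutadapt), aligned them to mm10 with STAR 2.5.2a and counted them per gene with featureCounts, and they deposited these counts as whole numbers without normalization. The annotation and the strand setting of the counting are not given in the sources used here. Reads that fall where genes overlap may therefore be lost or shared, as noted for Lss, Cyp51 and Tm7sf2.

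edgeR 4.0.16, run in R 4.3.3 (quasi-likelihood test after TMM scaling and filterByExpr), was used on the counts in 1 fit over all 8 libraries with dose as the only factor, and p-values were adjusted by Benjamini-Hochberg over the 14296 genes tested. A gene was called where its adjusted p lay under 0.01 and it differed by over 1.5-fold. The SE is the log2 fold change over the square root of F. On simulated counts with known changes the fit was checked first. Those counts had the same dispersion for every gene and no shift in the mtDNA share, so the check covers the code and not the calls. Ratios of mRNAs added 0.5 to each count and were compared by exact two-sided permutation of libraries. DESeq2 1.42.0, other scalings, filters and call rules, the replicate number as a block and leaving out each library were the alternatives. Figures and motif searches used Python 3.11.15, with GENCODE M21 and RefSeq GRCm38.p6 for positions and sequences.

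Groups came from the dose labels. Within a group, libraries differed by a chi-square of 3.23 to 20.2 per degree of freedom, above sampling noise, so each was kept as a replicate. Since nothing states that replicates were separate cultures, p-values measure only the spread between these libraries, which may be technical. A level of 3 counts is between 0.119 and 0.311 CPM (TMM) depending on the library, for counting error only. The members and the gene lists were chosen with earlier results of these data known. Genes outside the 9 were named where called in the lists of other post-squalene, mevalonate, sterol sensing and transport genes. So were the 5 with the nearest profile, and Ebp, Por, Cyb5b, Insig2, Srebf2, Stard4 and Abca1 were added after their values were seen. The lists of electron donors, sterol sensing, sterol transport, and efflux and storage were named in full to show what they hold. Some genes of these lists are not reported here.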

Additional observations from a re-analysis of the deposited data

How the results depend on the processing

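None of the 9 genes was called at 2 against 0 µM under any alternative run (edgeR settings, DESeq2 and every left-out library). At 10 against 0 µM, 4 were called, and 1 with total counts only as scaling, 6 with DESeq2 (Nsdhl and Dhcr7 added) and 4 to 5 with single libraries left out. At 10 against 2 µM, 3 were called, and 6 with no minimum fold change and 2 to 4 with single libraries left out. The labels do not state whether libraries with the same replicate number were paired. The correlations of same-numbered deviations were 0.199, 0.0845 and 0.161 at 2 against 0 µM, -0.145 and -0.105 at 10 against 0 µM and -0.0212 and -0.0610 at 10 against 2 µM. No differently numbered libraries were compared, so these values cannot show whether there was pairing. With the replicate block, 0, 4 and 3 of the 9 were called, as without it, and over all genes 54, 322 and 735 in place of 71, 442 and 788.

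With total counts only, the 2 against 0 µM log2 fold changes became 0.059 for Sqle, 0.042 for Cyp51, 0.039 for Tm7sf2, 0.071 for Nsdhl and 0.0016 for Hsd17b7, and Tm7sf2 became 0.071 at 10 against 0 µM and 0.032 at 10 against 2 µM. That scaling moves the median of all genes to 0.068, 0.23 and 0.16 in the 3 comparisons. With scaling over nuclear genes Nsdhl was 0.0040 at 2 against 0 µM, and within replicate numbers the change in the ratio of Sc5d to Dhcr7 was -0.051 at 10 against 0 µM. With single libraries left out, 2 against 0 µM ran from -0.047 to 0.022 for Sqle, -0.092 to 0.036 for Cyp51, -0.13 to 0.089 for Tm7sf2 and -0.084 to 0.12 for Nsdhl. Changes in log2 ratios ran from -0.11 to 0.098 for Cyp51 to Tm7sf2 and -0.033 to 0.22 for Nsdhl to Hsd17b7 at 2 against 0 µM. At 10 against 0 µM they ran from -0.065 to 0.062 for Sqle to Lss, -0.11 to 0.60 for Msmo1 to Nsdhl, -0.035 to 0.57 for Nsdhl to Hsd17b7 and -0.051 to 0.25 for Sc5d to Dhcr7. At 10 against 2 µM they ran from -0.27 to 0.44 for Msmo1 to Nsdhl, -0.10 to 0.50 for Nsdhl to Hsd17b7 and -0.21 to 0.0048 for Sc5d to Dhcr7. The summed level was 1065, 1112 and 831 CPM at 0, 2 and 10 µM with total counts only.

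Over all genes, calls at 2 against 0, 10 against 0 and 10 against 2 µM were 66, 914 and 1007 with total counts only, of which 39.4%, 92.6% and 91.7% were higher, in place of 23.9%, 63.1% and 71.2%. They were 109, 503 and 813 with DESeq2, 107, 747 and 1539 with no minimum fold change, 178, 727 and 1190 at an adjusted p under 0.05, and 6 to 144, 235 to 633 and 444 to 884 with single libraries left out. With 2 libraries at 10 µM, scarce mRNAs such as Dhcr7 and Tm7sf2 have wide intervals.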
